A study of Mus musculus with 14 samples.

Results

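The regions described here are the CTCF binding sites that wild-type (WT) mouse cells acquired during differentiation and that were missing in cells with the CTCF K20R mutation. Overlapping peaks (1 bp or more) of the 8 CTCF peak lists were merged into 86652 sites. A site was a member if it was called in both WT lists of day 4, in neither WT list of day 0 and in neither K20R list of day 4, and 1786 sites met this rule. The members were selected on these peak calls, so their presence in WT and their absence from day 0 and from K20R are descriptions and not findings.

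CTCF was mapped by chromatin immunoprecipitation sequencing in E14Tg2A mouse embryonic stem cells (mESCs). Day 0 cells were grown on inactivated fibroblasts with leukemia inhibitory factor (LIF) and 2i inhibitors, and day 4 cells were embryoid bodies (EBs) formed in hanging drops without LIF. In the K20R genotype, lysine 20 of the endogenous CTCF was replaced with arginine by CRISPR/Cas9, and WT cells carried unaltered CTCF. Each genotype had 2 CTCF libraries per day, described as biological replicates, and 1 H3K27ac library at day 4, so H3K27ac values have no replicate check. The number of K20R clones in the libraries was not given in the sources used here, so genotype and clone cannot be told apart. The CTCF lists held 41360 to 77657 peaks. The longest was that of day 0 WT library 1 (77657 peaks, against 52698 in library 2), and the shortest were those of day 4 K20R (41360 and 47463 peaks, against 61088 and 61436 in day 4 WT). At day 4, H3K27ac peaks lay within 3 kb of the start sites of T and Eomes in WT (1 each) and not in K20R (0 each), while Mesp1 had none in either genotype and Pou5f1 and Nanog had at least 1 in both. There was no H3K27ac library of day 0, so these peaks cannot check the day 4 label.

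CTCF is a zinc-finger protein that binds a long, asymmetric DNA motif and, with the cohesin complex, anchors chromatin loops. Most of its sites are occupied in many cell types, while a smaller set is gained or lost as cells change state. In EBs, early differentiation passes through a primitive streak-like stage in which mesoderm is specified, and H3K27ac marks the promoters and enhancers that are active there.

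A CTCF matrix of 19 positions was learned from the 36440 sites called in all 8 lists. Its consensus was TGGCCACCAGGGGGCGCTA, and its positions with at least 1 bit of information read CCNNNAGGNGGC, with N for the others. Both strands were scanned within 100 bp of each summit, and a match was a score passed by 5% of windows of the same length shifted by 1 kb. Of the 6 strongest members with a match, 5 are printed to show what was bound in WT EBs and not called in K20R. The AC100212.4 site, the fifth of them by strength, is named only. They are followed by a member with a match within 3 kb of a listed chromatin gene, the Sugp1 site beside Mau2. Coordinates are mm10 (GRCm38), the strand is that of the motif, bases are from the RefSeq GRCm38 sequence, and capitals mark the match.
Mink1 site, chr11:70612664-70612722, minus strand: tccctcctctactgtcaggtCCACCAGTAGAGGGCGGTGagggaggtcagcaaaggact
Gm11892 site, chr4:24188259-24188317, minus strand: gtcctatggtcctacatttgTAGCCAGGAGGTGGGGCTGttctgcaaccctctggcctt
Kcnj9 site, chr1:172333691-172333749, plus strand: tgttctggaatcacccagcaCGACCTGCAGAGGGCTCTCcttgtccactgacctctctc
Lgals12 site, chr19:7606064-7606122, plus strand: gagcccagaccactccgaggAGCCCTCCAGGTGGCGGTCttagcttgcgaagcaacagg
Gm27684 site, chr7:115422992-115423050, plus strand: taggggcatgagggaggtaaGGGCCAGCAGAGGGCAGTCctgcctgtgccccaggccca
Sugp1 site, chr8:70045205-70045263, plus strand: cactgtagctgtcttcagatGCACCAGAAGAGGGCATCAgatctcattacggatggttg

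The sites were in introns of Mink1, Lgals12 and Sugp1 and between genes near Gm11892, Kcnj9 and Gm27684. The matches carried 10 to 13 of the 19 consensus bases and scored 13.6 to 21.3 bits, and those at Gm11892, Gm27684 and Sugp1 lay in sequence masked as repeat. For contrast, the 2 strongest sites that were acquired in WT, were called in both day 4 K20R lists and had a match are printed, both between genes and nearest to Gm29705 and Kcna10. They carried 13 and 14 of the consensus bases, the Kcna10 site more than any member shown. Their scores of 15.6 and 19.8 bits were within the range of the members shown.
Gm29705 site, chr8:71751510-71751568, plus strand: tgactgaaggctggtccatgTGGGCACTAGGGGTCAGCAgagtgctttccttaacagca
Kcna10 site, chr3:107160217-107160275, minus strand: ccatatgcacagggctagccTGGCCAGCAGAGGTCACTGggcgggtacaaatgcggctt

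Of all 86652 sites, 2098 (2.42%) were acquired in WT, that is, called in both day 4 and neither day 0 WT list. Of these 2098 sites, 1786 (85.1%) were members, 260 were called in 1 day 4 K20R list and 52 in both. Over all sites, 10345 (11.9%) were called in both WT lists and neither K20R list of day 4. Because the rule used these calls, nothing is read from the difference between the shares. The counts depended on single libraries. Judged without day 0 WT library 1, the rule found 6424 sites, and without day 4 WT library 1 or 2 it found 3724 or 3592. When every list was cut to the length of the shortest, it found 1011 sites, 46.1% of the acquired sites, so the share of 85.1% moved with the lengths of the lists.

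The members were weak sites. The pileup at the summit, the number of overlapping read fragments, was recovered from the deposited fold enrichment and p-value. It ran from 5 to 27 reads in day 4 WT library 1 (median 10) and from 5 to 31 reads in library 2 (median 10). Fold enrichment over local background had medians of 5.70 and 5.69 and reached 16.0 and 18.2. Strength, the mean percentile of fold enrichment within the WT lists, had a median of 15.4 and quartiles of 10.3 and 23.4. The WT pileups were at most 3 reads apart at 1394 of 1786 members (78.1%), and the summits within 50 bp of each other at 1335 (74.7%). The rule required a call in both WT lists, and members had pileup quartiles of 8 and 12 reads in each. No agreement between the libraries is read from these counts.

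**Figure D1:**
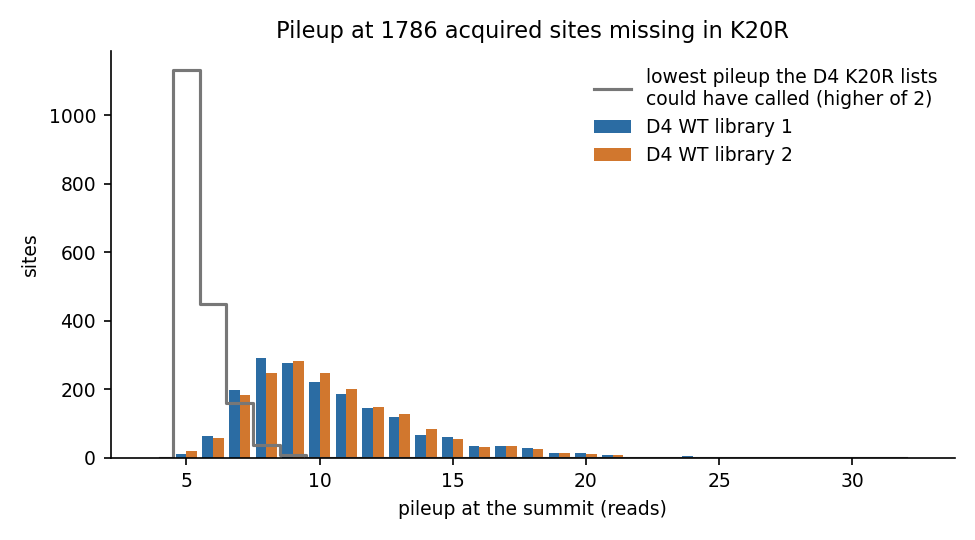
Number of members (y axis) by pileup at the summit in reads (x axis), in day 4 WT library 1 (blue) and library 2 (orange). The grey line counts members by the lowest pileup that both day 4 K20R lists could have called at the same background, 5 to 9 reads. This bound had a median of 5 reads in each K20R list, and the WT medians were 10 reads.

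Absence from a peak list is not absence of signal. The lowest pileup called was 5 reads in each of the 8 lists. At the WT background of each member, the day 4 K20R lists would have called a pileup of 5 to 9 reads (median 5), a bound that assumes the same background in K20R. The lower of the 2 WT pileups was at least 2 times this bound at 448 members (25.1%) and less than 1.5 times at 646 (36.2%).

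Sites just outside the rule had median WT pileups of 11 reads or more. The 260 acquired sites with a peak in 1 K20R list had median WT pileups of 11 and 12 reads. Their K20R peaks had a median of 8 reads in library 1 (35 sites) and 9 reads in library 2 (225 sites). The 52 acquired sites in both day 4 K20R lists had median WT pileups of 14.5 reads in each library and K20R medians of 9 and 11 reads. On the day 0 side, 4741 sites were left out only because 1 day 0 WT list held them, 4638 of them called in library 1 and 103 in library 2, with median day 0 pileups of 13 and 8 reads.

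At each level of WT strength, acquired sites were missing from K20R more often than sites called in both day 0 WT lists. Up to the 10th percentile of strength, 424 of 470 acquired sites (90.2%) were missing, compared with 306 of 673 (45.5%) of the sites called on both days. Between the 30th and 40th percentiles the shares were 70.7% of 215 and 20.0% of 4314. Above the 60th percentile only 4 acquired sites remained, 1 of them missing. These values use the calls that define the members and are given without a test.

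**Figure D2:**
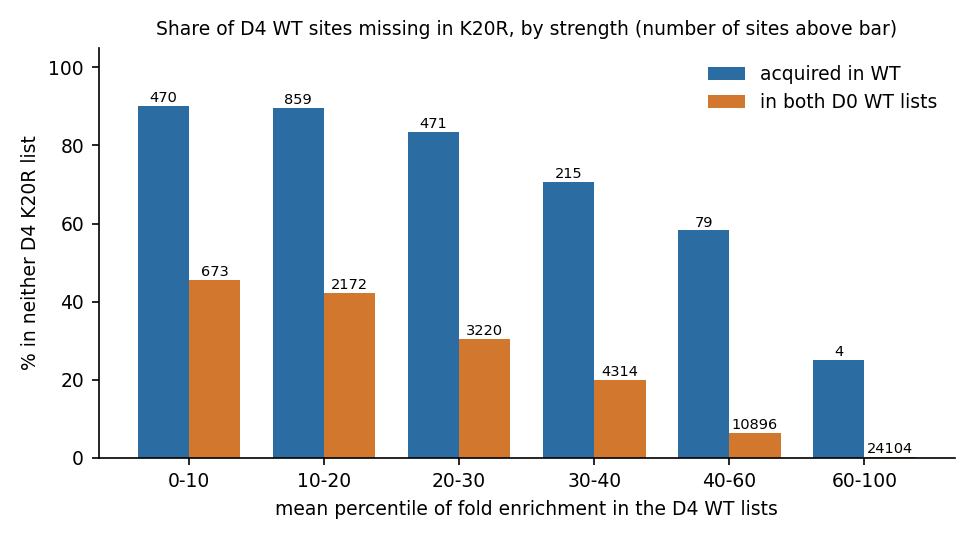
Percentage of day 4 WT sites in neither day 4 K20R list (y axis), by mean percentile of fold enrichment in the day 4 WT lists (x axis), for sites acquired in WT (blue) and sites called in both day 0 WT lists (orange), with the number of sites above each bar. Blue bars fall from 90.2% to 58.2% over the first 5 bins, and orange bars from 45.5% to 6.43%.

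The 12 strongest members had WT pileups of 18 to 31 reads. The strongest lay at chr11:70612427-70612837 in an intron of Mink1, which encodes a serine/threonine kinase, with 26 and 31 reads. Next were a site between genes near Gm11892 (22 and 24 reads), a site 4393 bp from the nearest start site, that of Kcnj9, a potassium channel gene (21 and 25 reads), and an intron of Lgals12, a galectin gene (24 and 21 reads). Zcchc24 (20 and 25 reads), Lypd6b (23 and 18), Slc38a6 (25 and 21), Gpatch2 (21 and 19) and Cntnap5a (18 and 22) held others in introns. The sites nearest to AC100212.4 (26 and 18 reads), Gm27684 (20 and 22) and Gm5518 (19 and 20) were between genes. The day 4 K20R lists could have called 5 reads at 11 of these sites and 6 at the Slc38a6 site. A motif match was present at 8 of the 12 and absent at Zcchc24, Lypd6b, Gpatch2 and Cntnap5a.

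**Figure D3:**
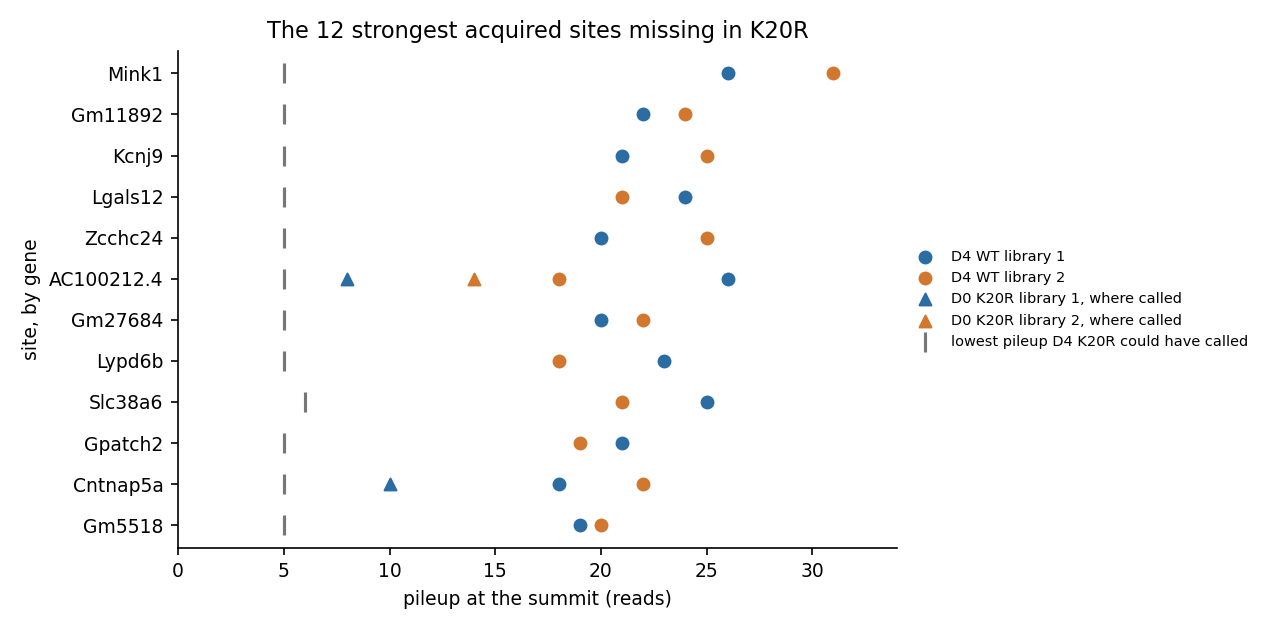
Pileup at the summit in reads (x axis) at the 12 strongest members (y axis, by gene): circles for the day 4 WT libraries, triangles for the day 0 K20R libraries where they called the site, grey ticks for the lowest pileup that both day 4 K20R lists could have called. All WT circles lie at 18 reads or more, and triangles appear only at AC100212.4 and Cntnap5a.

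The day 0 K20R lists were not used by the rule. There, 1688 members (94.5%) were in neither list, 41 and 46 only in library 1 or library 2, and 11 in both. Over all 86652 sites, 200 (0.231%) were called in both K20R lists and neither WT list of day 0. Members are absent from both day 0 WT lists by the rule. Of the 8182 sites in neither of those lists, 79.6% were in no day 0 K20R list, 17.97% in 1 and 2.44% in both, but some of these sites were defined by the K20R day 0 calls themselves, so no difference is read from these shares. The pileups of members called at day 0 in K20R ran from 5 to 14 reads (52 sites, library 1) and from 6 to 14 reads (57 sites, library 2), each with a median of 8. Among the strongest members, the AC100212.4 site had 8 and 14 reads in the day 0 K20R libraries and the Cntnap5a site had 10 reads in library 1. The share in at least 1 day 0 K20R list was 5.49% (95% Wilson interval 4.52% to 6.64%) of members and 30.8% (19.9% to 44.3%) of the 52 acquired sites in both day 4 K20R lists, a difference of -25.3 percentage points (-38.8 to -14.4). It was 14.6% of acquired sites in 1 day 4 K20R list. These classes were set by K20R calls of day 4. Median WT pileups were 10 reads at members and 14.5 at the 52 sites. The part of these in the difference was not tested.

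The CTCF motif was found at 1056 of 1786 members, 59.1% (56.8% to 61.4%). The difference was -14.6 points (interval -17.3 to -12.0) to the 73.8% of the 3818 sites called on both days in WT and missing in K20R, and -29.6 points (-31.9 to -27.3) to the 88.7% of the 38243 sites in all 4 day 4 lists that were not newly acquired, called kept sites here. Weighted to the strength of the members, kept sites still had a match at 82.0% and the missing sites of both days at 70.1%. The 36440 sites from which the matrix was learned are all kept sites, and no member was among them. The shares of kept sites are therefore not independent of the matrix, and the part of this in the differences was not tested. Acquired sites in both day 4 K20R lists had one at 53.8%, and the difference of 5.28 points had an interval of -7.74 to 18.8 that includes 0. With the threshold passed by 1% of shifted windows, the shares were 18.9% of members, 33.8% of sites of both days and 64.2% of kept sites. They were 30.8% of acquired sites in both day 4 K20R lists and 15.4% of those in 1 list. The members then differed from these by -11.8 points (-25.5 to -0.828) and 3.54 points (-1.65 to 7.85). The sign of the difference to the sites in both lists thus depended on the threshold. With lists of one length, 75.7% of the then 1011 members, 79.1% of sites of both days and 89.7% of kept sites had a match. These intervals reflect the counting of sites alone, and the sites are not independent because they share the same libraries.

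Where a member had a match, its centre lay a median of 23 bp from the summit, compared with 23 bp at the 4741 missing sites in 1 day 0 WT list, 18 bp at the missing sites of both days and 14 bp at kept sites. A CG dinucleotide was present in 20.9% (18.6% to 23.5%) of the members' matches and in 45.4% (44.9% to 46.0%) of those at kept sites. The other missing sites were nearer to the members in this respect, with 24.2% of matches at the sites in 1 day 0 WT list and 24.9% at the sites of both days. Acquired sites in 1 and in both day 4 K20R lists had 42.1% and 32.1%. The members differed from them by -21.2 points (-29.8 to -12.9) and -11.2 points (-29.9 to 3.22). The matrix consensus contains CG, and the matrix was learned from kept sites. Median best scores were 11.3 bits at members, 10.1 at acquired sites in 1 K20R list and 17.1 at kept sites. The part of match score in these shares was not tested. The match was mostly masked as repeat in 28.1% of members and 30.8% of kept sites, but in 51.2% of the missing sites in 1 day 0 WT list and 43.0% of those of both days. The members differed from these by -23.1 points (-26.2 to -19.9) and -14.9 points (-18.1 to -11.6). The whole 201 bp window was mostly masked at 17.7% of members and 23.4% of kept sites. Weighted to member strength, it was so at 54.4% of kept sites and 36.8% of the missing sites of both days. At the 730 members without a match, the 7-letter words most in excess over windows 1 kb away, searched on both strands outside repeats within 50 bp of the summit, were led by AGGGGGC. It was present at 77 of them (10.5%), against 8 at each of the windows to the left and right. CTGCCCC followed at 64, against 13 and 20. AGGGGGC is contained in the matrix consensus, so members without a match included some with a part of the motif.

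Of the members, 931 (52.1%) had their summit in an intron, 680 (38.1%) between genes and 175 (9.80%) in an exon. A start site lay within 3 kb of 459 members, 25.7% (23.7% to 27.8%). The difference was -20.5 points (interval -33.9 to -7.47) to the 46.2% of acquired sites in both day 4 K20R lists, -22.4 points (-28.7 to -16.0) to the 48.1% of acquired sites in 1 K20R list, and 7.29 points (4.95 to 9.68) to the 18.4% of sites of both days missing in K20R. To the 23.2% of kept sites it was 2.54 points (0.524 to 4.66). Within 1 kb, the shares were 12.9% of members and 11.9% of kept sites, and the difference of 0.993 points (-0.517 to 2.66) had an interval that includes 0. The differences to the other classes, in the order above, were -21.7, -24.0 and 5.10 points within 1 kb and kept their signs. With lists of one length the share was 21.3% of members and 29.4% of the acquired sites in at least 1 K20R list. Without day 0 WT library 1 these shares were 22.1% and 28.6%. With each other library of the rule left out, the second share was 40.2% to 50.8%. The acquired sites called in K20R were not weighted to the strength of the members. GC content in the 201 bp around the summit had a median of 49.8% at members, 56.2% and 54.2% at acquired sites in 1 and in both K20R lists, and 48.3% at kept sites. The nearest site called in all 8 lists was a median of 16852 bp away from a member. The members were dispersed, with a median of 351305 bp to the nearest other member and 65 members with another within 10 kb. They made up between 2.22% (chromosome 18) and 4.31% (chromosome 14) of the day 4 WT sites on the chromosomes other than Y, which had none.

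H3K27ac peaks from WT EBs overlapped 213 members, 11.9% (10.5% to 13.5%), and peaks from K20R EBs overlapped 196, 11.0% (9.61% to 12.5%). Of the members, 150 overlapped a peak in both genotypes, 63 in WT only, 46 in K20R only and 1527 (85.5%) in neither. A peak in WT only lay at 3.53% of members, 2.33% of the missing sites of both days and 1.94% of kept sites, and a peak in K20R only at 2.58%, 3.85% and 5.42%. Acquired sites in both day 4 K20R lists overlapped WT H3K27ac at 32.7% and K20R H3K27ac at 40.4%, and the members differed from them by -20.8 points (interval -34.4 to -9.48) and -29.4 points (-43.0 to -17.1). With lists of one length, 8.80% of members and 15.2% of the acquired sites in at least 1 K20R list overlapped WT H3K27ac. Without day 0 WT library 1 these shares were 9.28% and 15.2%. With each other library of the rule left out, the second share was 28.7% to 37.5%. Kept sites overlapped the marks at 11.7% and 15.2%. The members differed from them by 0.214 points (-1.24 to 1.83) in WT, an interval that includes 0, and by -4.22 points (-5.63 to -2.64) in K20R. Weighted to member strength, kept sites were at 9.21% and 12.1%. The K20R list was the larger, with 45318 peaks over 66.3 Mb against 38982 over 55.7 Mb in WT, and its part in these shares was not tested.

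**Figure D4:**
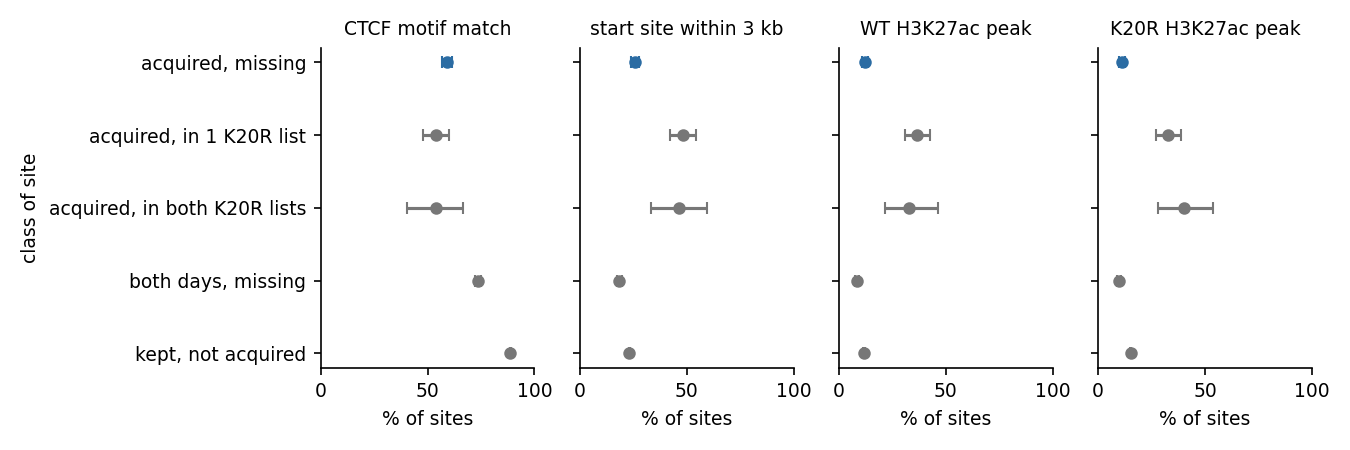
Percentage of sites (x axis, one panel per feature) with a CTCF motif match, a start site within 3 kb, a WT H3K27ac peak and a K20R H3K27ac peak, by class of site (y axis), with 95% Wilson intervals for counting error. Members (blue) have fewer motif matches than kept sites (59.1% against 88.7%) and are less often near start sites or H3K27ac than the acquired sites also called in K20R. The motif matrix was learned from kept sites.

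The strongest member with H3K27ac in WT only was the Lypd6b site (H3K27ac fold enrichment 2.83). Next was a site in an exon within S100a1, a calcium-binding protein gene of heart and muscle. It lay 13 bp from a start site (19 and 20 reads of CTCF pileup, H3K27ac 3.23). A site near Gm22482 (16 and 15 reads, H3K27ac 5.30) and an intron of 8030423F21Rik (16 and 15 reads, H3K27ac 3.53) followed. Last came an exon within Dnmt3a, which encodes a de novo DNA methyltransferase (17 and 13 reads, H3K27ac 3.30). Of these, the Dnmt3a site had a motif match and the 8030423F21Rik site was called at day 0 in K20R (9 reads, library 2).

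Genes were read from lists chosen with earlier results of these data known, and counted by whether a member lay within 50 kb of a start site, as 2523 of 21924 protein-coding genes (11.5%) had. The counts were 5 of 23 mesoderm and primitive streak genes, 7 of 27 cardiac genes, 7 of 41 genes of Wnt, Nodal, BMP and Fgf signalling, 2 of 21 pluripotency genes, 2 of 20 neural genes, 1 of 14 endoderm genes and 1 of 17 chromatin architecture genes. With so few genes per list, these counts are descriptions beside the background of 11.5%. Within 3 kb, where 351 protein-coding genes (1.6%) had a member, the listed genes were Wnt3, Bmp4, Pax6, Wnt8a and Mau2.

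Among the mesoderm signals, the Wnt3 site, 1467 bp from a start site of this primitive streak ligand, had 9 reads in each WT library and overlapped H3K27ac in WT (fold 3.43) and not in K20R. The Wnt8a site, 822 bp from a start site, had 15 and 12 reads and overlapped H3K27ac in both genotypes (4.09 in WT and 3.21 in K20R). The Bmp4 site, in an exon within the gene of this mesoderm-inducing ligand, had 8 and 9 reads and no H3K27ac. These 3 sites were weak, with 8 to 15 reads where the K20R lists could have called 5 or 6. The Pax6 site, in an exon within the gene of this neural and eye regulator, had 13 and 12 reads and no H3K27ac. The Wnt8a site had a motif match, and the Wnt3, Bmp4 and Pax6 sites had none. The site in a Sugp1 intron 2503 bp from Mau2, which encodes a partner of the cohesin loader, had 10 and 13 reads in WT, 6 reads in day 0 K20R library 1 and H3K27ac in both genotypes (10.3 and 9.07).

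Farther away, a member 45136 bp from T, which encodes the mesoderm factor Brachyury, had 12 and 11 reads and a motif match. A member in an exon within Aldoa, 13845 bp from Tbx6, a presomitic mesoderm factor, had 9 and 10 reads and no match. The Cdx2 member, 25484 bp away, had 8 and 10 reads and no match. At the cardiac genes, a member in an exon within Smarcd3, a chromatin remodelling subunit of the heart, had 11 reads in each library. A single member served both Tnnt2 (22657 bp) and Tnni1 (13864 bp), the troponin genes, with 8 and 10 reads, and the members near Tnnc1 (12 and 15 reads), Myl3 (10 and 17), Actc1 (9 and 12) and Nppa (9 and 7) were 12611 to 41920 bp away. Of these cardiac sites, those of Smarcd3, Tnnt2 and Tnni1, Tnnc1, Myl3 and Actc1 had a motif match, and that of Nppa did not. Near signalling genes, WT pileups were 19 and 11 reads for Wnt5a, 8 and 8 for Wnt5b, 12 and 11 for Fzd7, 10 and 11 for Tcf7, 7 and 9 for Fgf5, and 7 and 5 for Fgfr2. The pluripotency genes Pou5f1 (13 and 12 reads) and Tbx3 (17 and 12), the neural gene Nes (10 and 12) and the endoderm gene Foxa3 (8 and 13) had 1 member each. All of these members had low WT pileups, the highest being 19 reads.

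The sites called in all 8 lists that lay within 100 kb of a member (7177 of 36440) were compared between genotypes, since the rule did not use their strength. Fold enrichment was ranked within each list, among the sites called in all 8 lists only. A change shared by all of these sites would not show in such ranks. The median percentile rank of the neighbouring sites was 53.8 and 54.0 in the day 4 WT libraries and 53.8 and 54.8 in the day 4 K20R libraries. The WT libraries averaged 53.9 ± 0.192 and the K20R libraries 54.3 ± 0.718 (mean ± SD, n = 2 per genotype), a difference of 0.449 points that was within the spread of the libraries (two-sided exact permutation test, p = 0.667; the smallest p that 2 against 2 allows is 0.333). At day 0 the libraries had 53.1 and 54.9 in WT and 54.3 and 54.2 in K20R, a difference of 0.241 points (exact permutation test, p = 1). The change of the genotype difference from day 0 to day 4 was 0.208 points (exact permutation test over 36 arrangements, p = 0.889, smallest possible 0.0556). A difference between genotypes at the neighbours was therefore not detectable with these libraries.

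**Figure D5:**
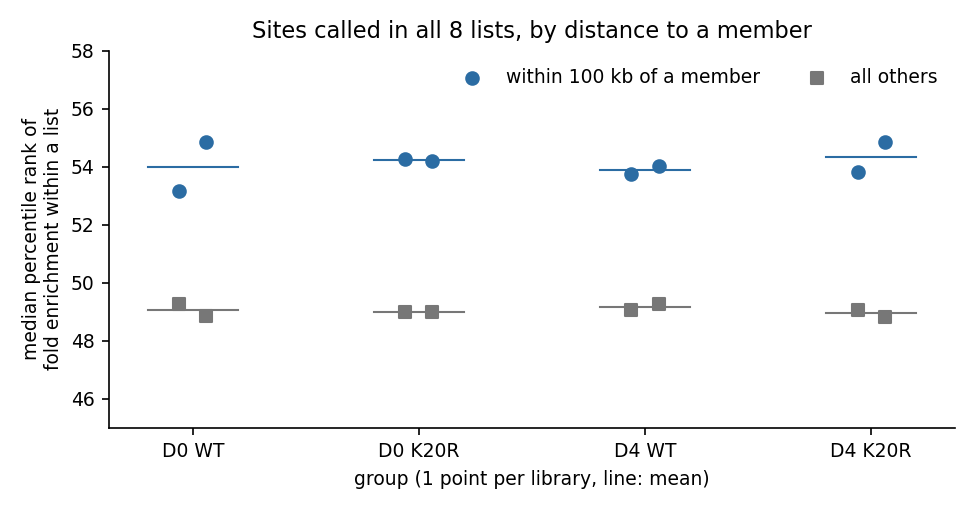
Median percentile rank of fold enrichment (y axis, not starting at 0), ranked within each list among the sites called in all 8 lists, by group (x axis). Sites within 100 kb of a member (blue circles) and all others (grey squares) are shown, 1 point per library and a line at the mean. Blue points lie at 53.1 to 54.9 in all groups and overlap between WT and K20R on both days.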

How the data were processed

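CTCF was mapped in 8 libraries and H3K27ac in 2 of the 14 samples. The other 4 were inputs and were not analysed here. The authors trimmed reads with Trim Galore, aligned them to mm10 with Bowtie2, removed low-quality alignments, duplicates and blacklisted reads, subsampled the CTCF libraries to equal read numbers and ran MACS2 on each library, for narrow (CTCF) or broad (H3K27ac) peaks. The input set against each library was not given in the sources used here. The deposited lists hold the fold enrichment over background, −log10 p-value, −log10 q-value and an integer score for each peak. The score was not used. No read counts were in the lists used here.

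Peaks of the 8 CTCF lists were merged where they overlapped by at least 1 bp, and sites were classed by the lists that called them. The members and gene lists were chosen with earlier results of these data known. Pileup and local background were solved from fold enrichment and −log10 p below 200 with background at least 0.6, and a whole-number solution lay within 0.01 of the deposited −log10 p at 100% of them. Every CTCF peak ended within its GRCm38 chromosome. Genes and exons were those of GENCODE M21 basic. Named sites were the 12 members with the highest mean WT percentile, the 5 highest with H3K27ac in WT only, members within 3 kb of a listed gene and, chosen after their values were seen, members within 50 kb of one. A site was named by the gene holding its summit, otherwise by the nearest start site. Exons of any annotated gene counted, so an exon within a named gene may belong to another gene. Shares carry 95% Wilson intervals and their differences Newcombe intervals. Neighbouring sites were tested over libraries by two-sided exact permutation. Tools were samtools 1.23.1, pysam 0.24.0, scipy 1.17.1, numpy 2.4.6, matplotlib 3.10.9, pandas 2.3.3 and Python 3.11.15. The merging, pileup and motif steps were tested on simulated data. The alternatives tried were lists of one length, peaks with a −log10 q of 5 or more, windows of 500 bp or 100 bp on the summits, autosomes alone, other distances and thresholds, each library left out in turn, and a replicate block.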

Additional observations from a re-analysis of the deposited data

How the results depend on the processing

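The number of members stayed within 1.5 times of 1786 with a −log10 q of at least 5, with summit windows, on autosomes, and with absence from 1 K20R list enough. With lists of one length it was 1011, and the share of acquired sites missing was 46.1%, the motif share 75.7%, the share near start sites 21.3%, and the H3K27ac shares 8.80% (WT) and 9.30% (K20R). A −log10 q of at least 5 gave a motif share of 63.9%. Motif matches within 50 bp were 55.7%, and with the 1% threshold 18.9%. Start sites within 1 kb were near 12.9% of members, and protein-coding ones within 3 kb near 17.97%. H3K27ac peaks with a −log10 q of at least 5 overlapped 6.61% (WT) and 5.99% (K20R), and peaks within 1 kb lay at 18.3% and 17.9%. Leaving out each library that the rule used gave 1821 to 6424 members, 67.7% to 95.9% of acquired sites missing, motif shares of 53.9% to 69.7%, start site shares of 22.1% to 28.5%, and H3K27ac shares of 9.28% to 14.9% (WT) and 10.2% to 13.7% (K20R). The cause of these moves was not tested, except that a group judged on 1 library admits more sites by construction.

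At neighbouring sites, the day 4 difference turned to -0.309 points within 20 kb and to -0.116 points ranked by −log10 p, and the change from day 0 turned to -0.0178 points ranked by −log10 p. Leaving out each library gave -0.059 to 0.956 points at day 4 and -0.645 to 1.06 points for the change. With a replicate block, pairing libraries by number, the day 4 difference was 0.449 points (exact sign flips, p = 0.5, the smallest that 2 pairs allow). The sources do not say that the numbers pair the samples. Leaving out segments of chromosomes 14 and 8, an alternative chosen after seeing the data, gave 1739 members and a neighbour difference of 0.582 points.

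With 2 libraries per group and lists without read counts, CTCF signal at single members was not tested, and a site below the calling threshold cannot be told apart from an unbound one.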
